A study of Mus musculus with 5 samples.

Results

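Notch signalling was described in E8.5 mouse neural tubes through 10 genes: the receptor genes Notch1, Notch2 and Notch3, the ligand genes Dll1, Dll3 and Jag1, the glycosyltransferase gene Lfng, and the Hes genes Hes1, Hes5 and Hes6. They were found by symbol in the deposited count tables, which list 23284 genes, and all 10 passed the filter on low counts. RNA-seq was done on neural tubes, the embryonic tissue that gives rise to the brain and spinal cord, from EpoR -/- embryos (EpoR-null, 2 samples) and from littermate controls, which were EpoR +/+ (wild type, 2 samples) or EpoR +/- (heterozygote, 1 sample). EpoR encodes the erythropoietin receptor. The deletion is constitutive, so that blood and endothelium lack the receptor as well as the neural cells, and the embryos came from crosses between EpoR +/- mice. The labels give an age of E8.5 for all samples and the study's own text places the embryos slightly later. They do not say whether a sample is a single embryo, so the p-values measure the spread between these samples. The comparison asks which transcripts differ in the neural tube when EpoR is absent.

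Notch is a receptor that sits in the plasma membrane and is activated by Delta and Jagged ligands on neighbouring cells. Ligand binding leads to cleavage by an ADAM protease and then by the gamma-secretase complex, and the released intracellular part joins RBPJ and a Mastermind protein in the nucleus to switch on target genes such as Hes1 and Hes5. In the neural tube these Hes repressors hold cells in the progenitor state, while cells that begin to differentiate express Delta ligands and activate Notch in their neighbours.

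Reads counted on genes ranged from 19316126 to 41169218 per sample, so that 3 reads corresponded to between 0.0729 and 0.155 CPM, the read count scaled to the size of the library. Every member had at least 558 reads in every sample. Values below are CPM after TMM scaling, a correction for differences in library composition, unless stated otherwise. Epor itself had 2.35 and 1.62 CPM in wild type replicates 1 and 2, 0.476 CPM in the library labelled heterozygote, and then 0.354 and 0.669 CPM in the EpoR-null samples. These levels rested on 57, 68, 11, 7 and 19 reads. The library labelled heterozygote thus lay between the EpoR-null samples, and the groups overlapped (log2 fold change -1.51, standard error 0.76, adjusted p = 0.280 in the exact test of edgeR). The same library had low levels of markers of primitive erythroid cells (43.9 CPM summed over 6 genes, against 600 and 1087 CPM in the wild type samples) and of endothelium (12.4 CPM over 7 genes, against 184 and 297 CPM), cell types that express Epor, and the part of these cells in its Epor level was not tested. The neural label was borne out by the progenitor markers Sox1, Sox2, Sox3, Pax6, Nes and Msi1, whose summed level was between 1261 and 1708 CPM in the 5 samples. In bulk tissue, fewer cells of a type and less RNA per cell cannot be told apart.

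RefSeq promoter windows (GRCm38.p6, 250 bases before to 50 bases after a start site) were found for 9 of the 10 genes, all but Hes1, with 11 windows in all. They were searched on both strands for the core of the RBPJ site (TGGGAA), for the N box that Hes repressors bind (CACNAG), and for the STAT site (TTCNNNGAA), STAT5 being a mediator of EpoR signalling. The RBPJ core was found in 2 of the 11 windows, those of Lfng and Hes5, and in 25.6% of all 32851 windows in the table. The N box was found in 6 of 11 windows (42.5% of all windows) and the STAT letters in 1 of 11 (8.3%), that of Notch3, as TTCGGCGAA just after the start site. In the Notch1 window, which is not shown, 2 of the 3 N box matches overlapped. A match is a description of the letters, and no binding was measured in these samples. The windows of the receptor genes that passed the test described below, Notch2 and Notch3, are shown with N box matches in capitals. Those of Lfng and the Notch target Hes5 are shown with RBPJ core matches in capitals. In Hes5 the matches began 226 and 82 bases before the start site, and in Lfng 135 and 108 bases before it.
Notch2, N box in capitals, chr3:98013288-98013587, plus strand: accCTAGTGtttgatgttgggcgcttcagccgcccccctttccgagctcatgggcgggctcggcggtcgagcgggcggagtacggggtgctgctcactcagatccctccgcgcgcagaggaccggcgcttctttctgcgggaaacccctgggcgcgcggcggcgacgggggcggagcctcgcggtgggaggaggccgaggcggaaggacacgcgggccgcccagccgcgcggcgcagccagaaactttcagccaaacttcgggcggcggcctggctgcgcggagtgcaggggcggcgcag
Notch3, N box in capitals, chr17:32166841-32167140, minus strand: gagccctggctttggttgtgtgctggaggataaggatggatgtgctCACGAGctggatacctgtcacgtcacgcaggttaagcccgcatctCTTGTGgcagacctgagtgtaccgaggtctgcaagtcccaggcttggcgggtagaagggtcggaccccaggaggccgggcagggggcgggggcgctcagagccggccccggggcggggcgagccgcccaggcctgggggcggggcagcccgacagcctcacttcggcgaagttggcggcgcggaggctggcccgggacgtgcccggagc
Lfng, RBPJ core in capitals, chr5:140607091-140607390, plus strand: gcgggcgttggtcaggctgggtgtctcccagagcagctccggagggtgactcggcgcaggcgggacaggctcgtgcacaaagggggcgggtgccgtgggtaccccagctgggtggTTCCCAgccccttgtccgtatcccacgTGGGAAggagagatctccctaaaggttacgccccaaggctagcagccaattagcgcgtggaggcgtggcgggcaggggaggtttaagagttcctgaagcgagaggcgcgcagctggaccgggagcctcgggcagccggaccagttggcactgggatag
Hes5, RBPJ core in capitals, chr4:154960673-154960972, plus strand: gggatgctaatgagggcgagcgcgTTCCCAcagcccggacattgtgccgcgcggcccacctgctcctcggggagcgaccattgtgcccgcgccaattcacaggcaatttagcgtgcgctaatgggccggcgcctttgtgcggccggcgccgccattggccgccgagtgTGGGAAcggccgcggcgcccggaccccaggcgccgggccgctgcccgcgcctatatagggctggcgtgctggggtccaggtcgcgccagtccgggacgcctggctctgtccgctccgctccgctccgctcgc

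In the neural tubes that lacked EpoR, transcripts of 2 Notch receptors were called lower. Notch2 and Notch3 fell to 62.0% and 64.4% of the control mean and passed the test, whereas Notch1, at 67.2% of the control mean, did not. None of the ligands, Lfng or the Hes factors passed it. The exact test of edgeR was used with the thresholds of the study, p < 0.001 together with FDR < 0.05, the latter by Benjamini-Hochberg adjustment over the 12703 genes tested. By this rule 2 of the 10 genes were called, both lower, beside 4.77% of all genes tested (3.84% lower and 0.929% higher). At FDR < 0.05 alone the same 2 members passed, beside 7.31% of all genes. The EpoR-null samples and the controls did not overlap for 5 of the 10 genes of which Notch1, Notch2, Notch3 and Jag1 were below all controls and Hes1 above them. Over all genes tested 43.3% did not overlap, 22.1% below and 21.2% above, so the count of 5 was close to the background.

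**Figure D1:**
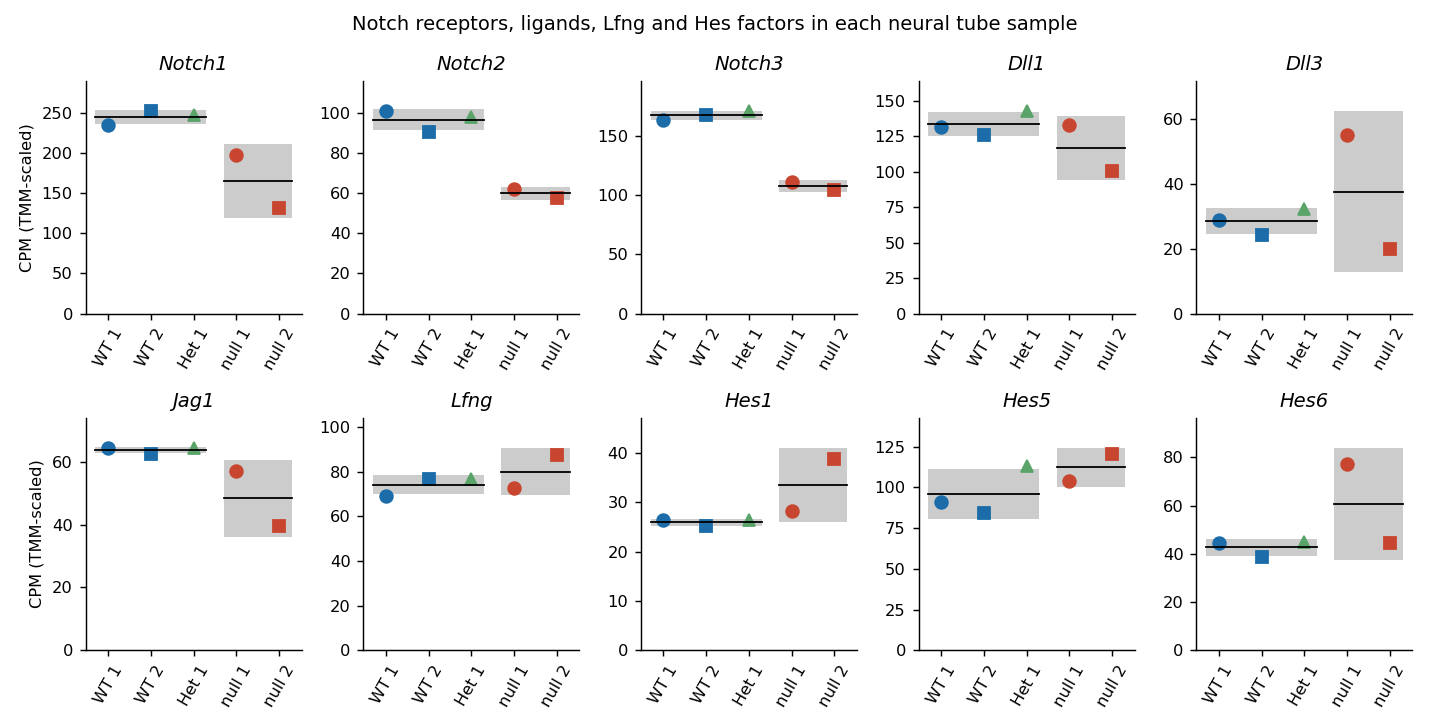
CPM (TMM-scaled, linear axis from 0) of the 10 genes in each sample, with wild type (WT) and EpoR-null (null) samples numbered by replicate and the library labelled heterozygote as Het 1. Lines are group means and grey bands 1 SD (controls n = 3, EpoR-null n = 2); both EpoR-null samples lie below every control for Notch1, Notch2, Notch3 and Jag1 and above every control for Hes1, while Dll3 and Hes6 are high in EpoR-null replicate 1 alone.

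Notch2, a receptor gene broadly expressed in the early embryo (chr3:98013527-98150361, plus strand, GRCm38), had 101 and 90.7 CPM in wild type replicates 1 and 2, 98.2 CPM in the library labelled heterozygote, and 62.0 and 57.6 CPM in EpoR-null replicates 1 and 2. The highest EpoR-null value was below the lowest control value by more than the spread within either group. Controls averaged 96.6 ± 5.22 CPM (SD, n = 3) and EpoR-null samples 59.8 ± 3.10 CPM (SD, n = 2), which gave a log2 fold change of -0.69 (standard error 0.14, adjusted p = 8.88e-05, exact test of edgeR). Notch3 (chr17:32120820-32166852, minus strand), a receptor gene expressed in neural progenitors and in the mural cells of vessels, had 164 and 168 CPM in wild type replicates 1 and 2, 171 CPM in the library labelled heterozygote, and 111 and 104 CPM in EpoR-null replicates 1 and 2. It showed the same separation, as controls averaged 168 ± 3.70 CPM (SD, n = 3) and EpoR-null samples 108 ± 4.83 CPM (SD, n = 2), with a log2 fold change of -0.64 (standard error 0.13, adjusted p = 0.000180, exact test of edgeR). An antisense gene, Gm17276, overlaps 21024 bases of the Notch3 locus in the annotation used here. The counting is not stated to use strand, so that reads of the 2 genes cannot be told apart where their exons overlap. The Notch2 locus is overlapped on the same strand by Gm42819 (5121 bases) and Gm42820 (3063 bases). The loci of Notch1, Dll1 and Hes5 also have overlapping genes.

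Notch1 (chr2:26457903-26516663, minus strand), a receptor gene that the mouse embryo needs to survive and to form somites normally, had the most reads of the receptors. It had 235 and 252 CPM in wild type replicates 1 and 2, 248 CPM in the library labelled heterozygote, and 197 and 132 CPM in EpoR-null replicates 1 and 2. Both EpoR-null values were below all controls, but they differed from each other by more than the higher of them differed from the lowest control. Controls averaged 245 ± 8.70 CPM (SD, n = 3) and EpoR-null samples 165 ± 46.2 CPM (SD, n = 2). The log2 fold change of -0.57 (standard error 0.21) gave an adjusted p of 0.0808 in the exact test of edgeR. Without EpoR-null replicate 1 the value was -0.89, and without EpoR-null replicate 2 it was -0.31. Each of these fits kept a single EpoR-null sample, so no p-value is given for them.

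The calls of Notch2 and Notch3 were lost in edgeR's quasi-likelihood F-test, a test that takes account of the uncertainty of each gene's dispersion and called no gene of the whole table (adjusted p = 0.0590 for both, and 3052 of 12703 genes at an unadjusted p under 0.05). Notch2 also missed the threshold without wild type replicate 1 (log2 fold change -0.66, adjusted p = 0.0622 in the exact test), and Notch3 passed it without each control in turn. Summed over the 3 receptors, the level was 509 ± 8.69 CPM (SD, n = 3) in controls and 371 and 294 CPM in EpoR-null replicates 1 and 2. The summed neural progenitor markers were also below all controls in both EpoR-null samples, at 1487 and 1261 CPM against 1510 to 1708 CPM. Of the 6 genes, Sox2 and Msi1 were below all controls, as were 22.1% of all genes tested, and Msi1 alone was called. Sox1, Sox3, Pax6 and Nes overlapped. Nes, with the highest level of the 6, had 777 and 368 CPM in EpoR-null replicates 1 and 2, against 579 to 738 CPM in controls. The part of progenitor cells in the receptor levels was not tested.

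Levels of different genes were compared per kilobase of the longest annotated transcript, which may not be the transcript expressed here. On this scale Notch1 made up 46.2% ± 1.03 (SD, n = 3) of the summed receptor level in controls, Notch3 37.4% ± 0.162 and Notch2 16.5% ± 1.07. In EpoR-null replicates 1 and 2 the share of Notch1 was 51.3% and 42.9%, that of Notch3 34.2% and 40.2%, and that of Notch2 14.6% and 16.9%. The EpoR-null samples lay on opposite sides of the controls for Notch1 and Notch3, and no shift in receptor makeup was common to both.

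Fold changes in the whole table followed transcript length, and the receptor genes are among the longest of the genes tested. Across the 11525 tested genes with an annotated length (90.73%), the log2 fold change correlated with log2 length at a Pearson's r of -0.52 (Spearman's rho -0.63), a description across genes of the same 5 samples. The shortest 10% of genes, up to 1510 bases, had a median log2 fold change of 0.43, and the longest 10%, from 6976 bases, of -0.46. Among the longest 10%, 23.5% of genes were called lower and 61.2% had both EpoR-null samples below all controls. Notch1 (9488 bases), Notch2 (10500 bases) and Notch3 (8016 bases) belong to it, and their log2 fold changes were lower than its median by 0.11, 0.23 and 0.17. At the other end, Hes1 (1468 bases) and Hes5 (1273 bases) belong to the shortest 10%, of which 58.8% had both EpoR-null samples above all controls. Relative to the median of these shortest genes, the log2 fold changes of Hes1 and Hes5 were -0.06 and -0.21.

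**Figure D2:**
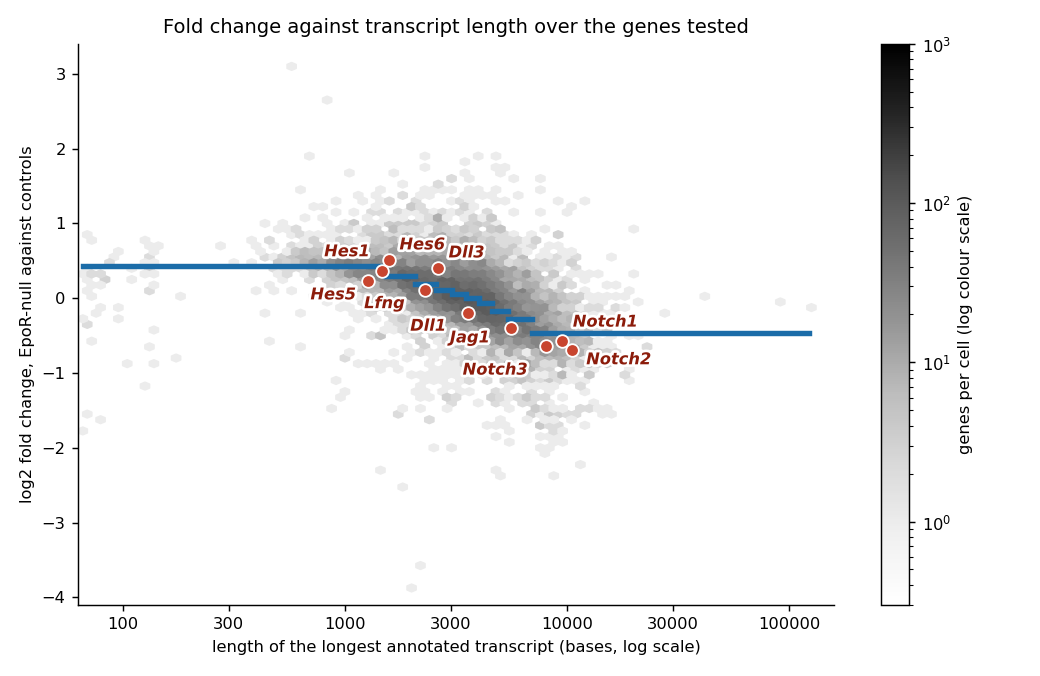
Log2 fold change of EpoR-null against controls (y) plotted against the length of the longest annotated transcript in bases (x, log scale) for 11525 genes, shaded by the number of genes in each cell. Blue lines are medians of 10 equal bins of the genes ordered by length, falling from 0.43 to -0.46, and the red points, the 10 genes described here, run the same way from the Hes genes to the Notch receptors.

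A fit that removes from each sample its smooth trend on length and GC content, with the likelihood-ratio test of edgeR, brought all receptor values nearer to 0. Notch2 had a log2 fold change of -0.23 (adjusted p = 0.955), Notch3 of -0.35 (adjusted p = 0.616) and Notch1 of -0.22 (adjusted p = 0.948). None of the 10 genes was called in this fit, beside 1.29% of the 11525 genes, 1.13% of them lower. At an unadjusted p under 0.05 there was 1 of the 10, beside 868 of the 11525 genes. The same test without the trend removed called Notch2 and Notch3, beside 4.75% of these genes. By construction the fit takes out any difference that follows length or GC content, whatever its source. What gave rise to the length trend was not tested.

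**Figure D3:**
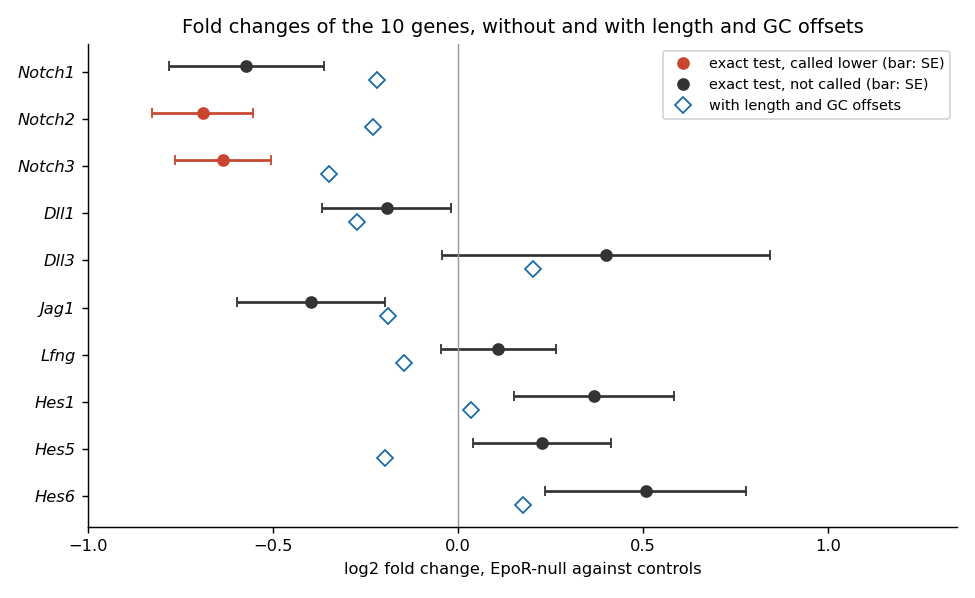
Log2 fold changes of EpoR-null against controls (x) for the 10 genes (y). Circles with bars are values and standard errors of the exact test, with Notch2 and Notch3 called lower, and open diamonds are values with the trend on length and GC content removed, which lie between -0.35 (Notch3) and 0.20 (Dll3).

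No common direction was seen for the ligands. Dll1 (chr17:15367354-15376872, minus strand), the Delta ligand gene of differentiating neural cells and of presomitic mesoderm, had 132 and 126 CPM in wild type replicates 1 and 2, 143 CPM in the library labelled heterozygote, and 133 and 101 CPM in EpoR-null replicates 1 and 2. The groups overlapped, with a log2 fold change of -0.19 (standard error 0.17, adjusted p = 0.591, exact test of edgeR). Jag1 (chr2:137081456-137116644, minus strand), a Jagged ligand gene, had 64.4 and 62.5 CPM in wild type replicates 1 and 2, 64.3 CPM in the library labelled heterozygote, and 57.1 and 39.7 CPM in EpoR-null replicates 1 and 2. Both EpoR-null samples were below all controls, replicate 1 only slightly so, and the log2 fold change of -0.40 (standard error 0.20) had an adjusted p of 0.259 in the exact test of edgeR. Without EpoR-null replicate 1, which left a single EpoR-null sample, it was -0.68.

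Dll3 (chr7:28293553-28302238, minus strand) encodes a divergent Delta protein that acts on Notch within the same cell and does not activate it in neighbours. Its level was 28.8 and 24.3 CPM in wild type replicates 1 and 2, 32.4 CPM in the library labelled heterozygote, and 55.2 and 20.1 CPM in EpoR-null replicates 1 and 2. The EpoR-null samples were thus the highest and the lowest of the 5, and the log2 fold change of 0.40 (standard error 0.44, adjusted p = 0.657, exact test of edgeR) stood for neither. The direction depended on which EpoR-null sample was left out: -0.50 without replicate 1 and 0.96 without replicate 2.

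Lfng (chr5:140607320-140615545, plus strand) encodes lunatic fringe, which adds sugars to Notch and changes its response to Delta and Jagged ligands. It had 69.2 and 76.8 CPM in wild type replicates 1 and 2, 76.7 CPM in the library labelled heterozygote, and 72.5 and 87.5 CPM in EpoR-null replicates 1 and 2. The groups overlapped, at a log2 fold change of 0.11 (standard error 0.16, adjusted p = 0.748, exact test of edgeR). The promoter window of Lfng, shown above, holds RBPJ core letters as does that of Hes5.

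The Hes genes stood above the control mean in the EpoR-null samples, but none was called. Hes1 (chr16:30064384-30067796, plus strand), a repressor of proneural genes and a direct Notch target, had 26.4 and 25.2 CPM in wild type replicates 1 and 2, 26.5 CPM in the library labelled heterozygote, and 28.2 and 38.8 CPM in EpoR-null replicates 1 and 2. The controls lay close together and both EpoR-null samples above them, replicate 1 by a small margin. The log2 fold change was 0.37 (standard error 0.22, adjusted p = 0.342, exact test of edgeR). It was 0.58 without EpoR-null replicate 1 and 0.12 without replicate 2, fits that each kept a single EpoR-null sample. Hes5 (chr4:154960923-154962371, plus strand), the Notch target that marks neural progenitors, had 90.8 and 84.2 CPM in wild type replicates 1 and 2, 113 CPM in the library labelled heterozygote, and 104 and 121 CPM in EpoR-null replicates 1 and 2. The library labelled heterozygote was above EpoR-null replicate 1, at a log2 fold change of 0.23 (standard error 0.19, adjusted p = 0.537, exact test of edgeR).

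Hes6 (chr1:91411483-91414038, minus strand), which counteracts Hes1 and is expressed as cells differentiate into neurons, had 44.3 and 38.7 CPM in wild type replicates 1 and 2, 44.9 CPM in the library labelled heterozygote, and 77.1 and 44.3 CPM in EpoR-null replicates 1 and 2. EpoR-null replicate 1 stood alone and replicate 2 lay among the controls, as the log2 fold change of 0.51 (standard error 0.27, adjusted p = 0.276, exact test of edgeR) does not show. It was 0.06 without EpoR-null replicate 1 and 0.85 without replicate 2, fits that each kept a single EpoR-null sample. Summed over Hes1, Hes5 and Hes6, the level was 161, 148 and 185 CPM in the controls and 209 and 204 CPM in the EpoR-null samples. Of these genes, Hes1 alone was above all controls in both EpoR-null samples. With the trend on length and GC content removed, Hes1 had a log2 fold change of 0.03, Hes6 of 0.18 and Hes5 of -0.20, none of them called, so that the direction of Hes5 turned, as did that of Lfng (-0.15).

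Markers of newborn neurons varied between samples in the order in which Dll3 varied. Summed over 12 genes of neuronal commitment and early neurons, among them Neurog1, Tubb3, Dcx and Stmn2, the level was 615 and 457 CPM in wild type replicates 1 and 2, 728 CPM in the library labelled heterozygote, and 1321 and 344 CPM in EpoR-null replicates 1 and 2. Of these genes, 10 of 12 were highest in EpoR-null replicate 1, and Dcx, a microtubule protein of young neurons, had 101 CPM there against 4.33 CPM in EpoR-null replicate 2. The EpoR-null samples therefore differed by 3.84 times in this sum, as they did by 55.2 to 20.1 CPM in Dll3 and 77.1 to 44.3 CPM in Hes6. None of the 12 genes was called, and the part of the number of newborn neurons in the levels of Dll3 and Hes6 was not tested.

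Markers of other tissues in which Notch genes are active were examined in the same way, none of them called, and for each list the sums of the groups overlapped. Presomitic mesoderm, where Dll1, Dll3 and Lfng are strongly expressed, was represented by 8.13 to 18.8 CPM in controls and 18.7 and 25.2 CPM in EpoR-null samples, summed over 6 markers, of which Tbx6, Msgn1, Mesp2 and Ripply2 were below 1 CPM in every sample. The somite markers came to 8.65 to 42.8 CPM in controls and to 82.1 and 30.1 CPM in EpoR-null replicates 1 and 2, with 6 of 6 highest in EpoR-null replicate 1. Endothelial markers, of cells that express Notch1, Notch4 and Dll4, ranged from 12.4 to 297 CPM in controls and from 143 to 255 CPM in EpoR-null samples. Neural crest markers came to between 41.7 and 147 CPM in controls and between 103 and 167 CPM in EpoR-null samples, and surface ectoderm markers to 4.84 to 23.4 CPM and 14.3 to 29.0 CPM. Notch1, Notch2, Notch3 and Jag1 in the library labelled heterozygote, which had the lowest endothelial sum of the 5 samples, were within 0.05 of the wild type mean on the log2 scale. This is a single library, and the part of these tissues in the levels of the Notch genes was not tested.

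**Figure D4:**
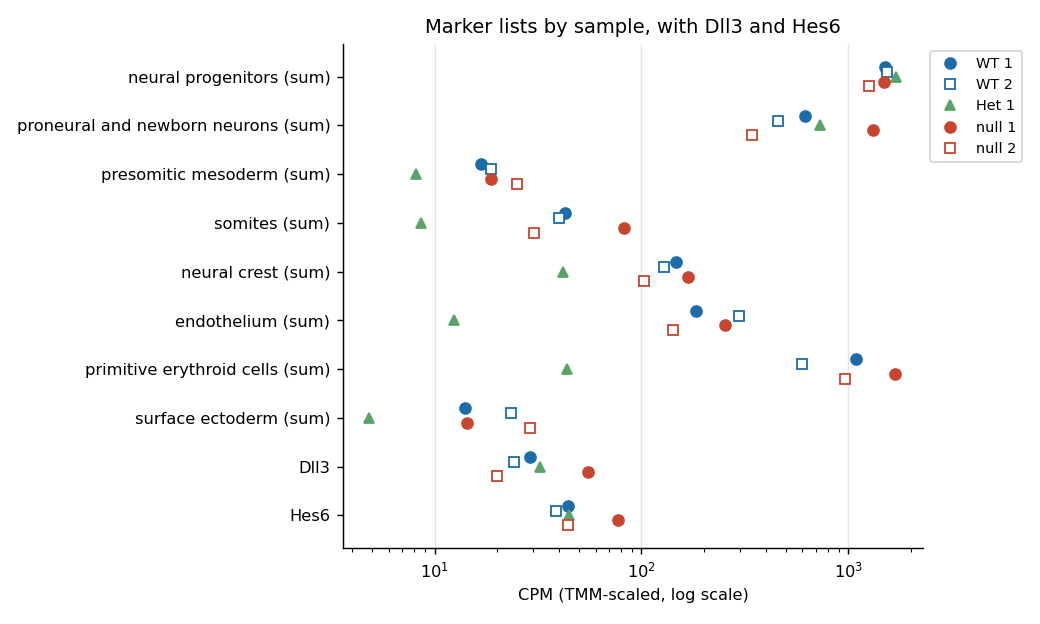
CPM (x, TMM-scaled, log scale) summed over each marker list (y), and of Dll3 and Hes6, in each of the 5 samples. EpoR-null replicate 1 (filled red circle) is highest for newborn neurons (1321 CPM), somites (82.1 CPM), Dll3 (55.2 CPM) and Hes6 (77.1 CPM). It is also highest for blood (primitive erythroid cells, 1688 CPM, with 963 CPM in EpoR-null replicate 2) and neural crest (167 CPM). The library labelled heterozygote (green triangle) is lowest for blood, endothelium, neural crest, somites, presomitic mesoderm and surface ectoderm.

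On the scale per kilobase, Hes5 was the most abundant of the 10 transcripts in control neural tubes, at 75.4 ± 11.9 CPM per kilobase (SD, n = 3). Dll1 followed at 37.3 ± 2.33, Lfng at 32.2 ± 1.88, Hes6 at 27.1 ± 2.17 and Notch1 at 25.8 ± 0.917 CPM per kilobase. The lower levels were those of Notch3 (20.9 ± 0.462), Hes1 (17.7 ± 0.484), Jag1 (11.4 ± 0.187), Dll3 (10.9 ± 1.54) and Notch2 (9.20 ± 0.497 CPM per kilobase). In this order the control ranges overlapped between Hes6 and Notch1, between Jag1 and Dll3 and between Dll3 and Notch2, and the other neighbours did not overlap. In the EpoR-null samples Hes5 was again first, at 88.2 ± 9.36 CPM per kilobase (SD, n = 2), and Notch2 last, at 5.70 ± 0.295 CPM per kilobase. The order rests on the longest annotated transcripts, of 1273 bases for Hes5 and 10500 bases for Notch2. Which transcripts were expressed was not determined.

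The library labelled heterozygote was close to wild type for most of the 10 genes. Notch1, Notch2, Jag1 and Lfng lay within the range of the wild type samples, and the other 6 were slightly above it. The largest log2 differences from the wild type mean were 0.37 for Hes5 and 0.29 for Dll3, in a single sample with no replicate. For Notch2 and Notch3 the values without this library were -0.68 and -0.62 (adjusted p = 0.0239 and 0.0196, exact test of edgeR), and both were called among 253 genes.

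Beyond the 10 genes, a list of 52 other Notch pathway genes was examined, of which 50 passed the filter on low counts. In the exact test of edgeR 5 of them were lower in EpoR-null neural tubes and 1 was higher, 10% and 2% of those tested beside 3.84% and 0.929% of all genes. Their median log2 fold change was -0.05, against 0.06 over all genes tested and -0.04 over the 10 genes described above. The lower genes were Mib1, Spen, Ep300, Crebbp and Maml3, and the higher one was Psenen. All 5 lower genes are among the longest 10% of genes, with transcripts of 8288 to 12299 bases, and Psenen, at 708 bases, is among the shortest 10%.

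Mib1 encodes the ubiquitin ligase that drives endocytosis of Notch ligands, the step by which a sending cell activates its neighbour. It had 83.7 and 71.3 CPM in wild type replicates 1 and 2, 92.6 CPM in the library labelled heterozygote, and 37.4 and 18.6 CPM in EpoR-null replicates 1 and 2. This was the largest change of the pathway, to 33.9% of the control mean, with all controls well above both EpoR-null samples (log2 fold change -1.56, standard error 0.32, adjusted p = 0.000480, exact test of edgeR). Without each sample in turn the value ran from -2.15 to -1.14, and Mib1 passed the threshold without each control in turn. The call was lost in the quasi-likelihood F-test (adjusted p = 0.0794). It was also lost in that test with the replicate number as a block and the length and GC trend removed (adjusted p = 0.141). Neither of these fits called any gene of the whole table. In the likelihood-ratio test of edgeR with the trend on length and GC content removed, Mib1 was the pathway gene that was called. Its log2 fold change there was -1.10 (adjusted p = 2.69e-05). The related ligases did not follow it: Mib2 had a log2 fold change of -0.07 (adjusted p = 0.912) and Neurl1a of 0.05 (adjusted p = 0.972, exact test of edgeR), and Neurl1b was below the filter.

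Of the 8 genes of the nuclear Notch complex and its coactivators, 3 were called lower in EpoR-null samples, beside 3.84% of all genes tested. The 3, Ep300, Crebbp and Maml3, are among the longest 10% of all genes, of which 23.5% were called lower. Rbpj, Maml1 and Maml2 are among the next longest 10% (5445 to 6975 bases), of which 8.77% were called lower. Ep300, which encodes the acetyltransferase p300, fell from 129 ± 5.25 CPM (SD, n = 3) to 72.5 ± 4.21 CPM (SD, n = 2), with a log2 fold change of -0.83 (standard error 0.13, adjusted p = 5.25e-07). Its relative Crebbp fell by 0.91 on the log2 scale (standard error 0.20, adjusted p = 0.000799) and the Mastermind gene Maml3 by 0.68 (standard error 0.17, adjusted p = 0.00272). Rbpj, the DNA-binding partner of Notch, had 189, 165 and 189 CPM in controls and 164 and 125 CPM in EpoR-null samples and was not called (log2 fold change -0.32, adjusted p = 0.323). Snw1, the gene of this list with the highest mean CPM over the 5 samples, had a log2 fold change of 0.05 (adjusted p = 0.884), and Maml1, Maml2 and Kat2b were not called either. These adjusted p-values are from the exact test of edgeR, and with the length and GC trend removed none of the 8 genes was called.

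Among corepressors, Spen, which binds RBPJ when Notch is inactive, fell from 109 ± 5.41 CPM (SD, n = 3) to 52.6 ± 2.77 CPM (SD, n = 2), with a log2 fold change of -1.05 (standard error 0.13, adjusted p = 4.41e-11, exact test of edgeR). Both EpoR-null samples were near the same level, 50.7 and 54.6 CPM, below 103 CPM in the lowest control. With the trend on length and GC content removed the value was -0.55 (adjusted p = 0.292, likelihood-ratio test of edgeR). Thus 1 of the 9 corepressors was called, beside 4.77% of all genes tested (3.84% lower). Spen, with a transcript of 12299 bases, is among the longest 10% of genes, of which 23.5% were called lower. The other 8 corepressors were not called, with Ctbp1 the highest of them in mean CPM over the 5 samples (log2 fold change 0.08, adjusted p = 0.812, exact test of edgeR).

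Of the 9 genes of receptor cleavage, 1 was called, beside 4.77% of all genes tested (0.929% higher). Psenen, which encodes the smallest subunit of gamma-secretase, had 27.9, 25.8 and 28.8 CPM in controls and 41.0 and 43.2 CPM in EpoR-null samples, a log2 fold change of 0.62 (standard error 0.17, adjusted p = 0.00799, exact test of edgeR). With the trend on length and GC content removed the value was 0.16 and Psenen was not called. It also missed the thresholds without wild type replicate 1, wild type replicate 2 or the library labelled heterozygote. Adjusted p-values were then 0.254, 0.149 and 0.107 in the exact test of edgeR. The call was also lost in the quasi-likelihood F-test (adjusted p = 0.0618). It was lost as well in that test with the replicate number as a block (unadjusted p = 0.00175). The protease gene Adam10 had the highest mean CPM of this list over the 5 samples and was not called (log2 fold change -0.27, adjusted p = 0.523, exact test of edgeR), nor were Ncstn or Aph1a, which also encode gamma-secretase subunits.

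None of the 10 inhibitor genes passed the thresholds, and Nedd4, the highest of them in mean CPM over the 5 samples, had 2344, 2226 and 2390 CPM in controls and 1932 and 1509 CPM in EpoR-null samples (log2 fold change -0.43, adjusted p = 0.105, exact test of edgeR). None of the 4 receptor glycosylation genes passed them either, with Poglut1 the highest on the same measure (log2 fold change 0.04, adjusted p = 0.914, same test). Of the other receptors and ligands, Notch4 had the highest mean CPM over the 5 samples and a log2 fold change of 0.37 (adjusted p = 0.645, same test), with groups that overlapped. Of the other Hes and Hey targets, 4 of 5 could be tested and Hey1, the highest in mean CPM over the 5 samples, had a log2 fold change of 0.18 (adjusted p = 0.699, same test). Hes7, the oscillating repressor of presomitic mesoderm, was at or below 0.13 CPM in every sample.

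**Figure D5:**
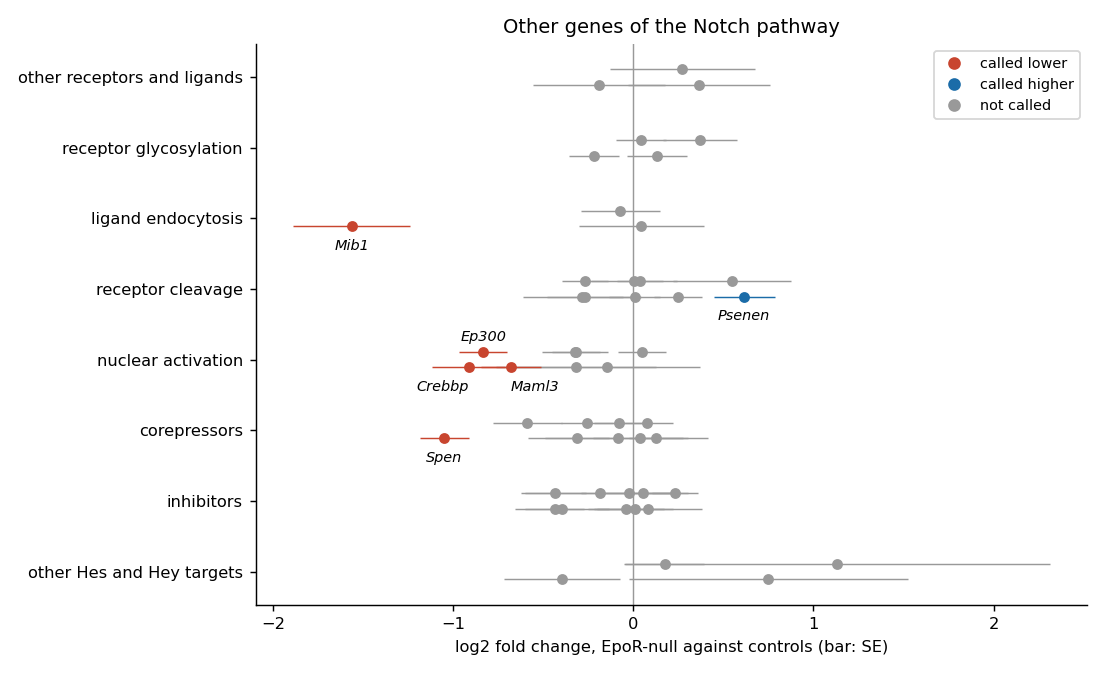
Log2 fold changes of EpoR-null against controls (x, bars are standard errors) for the 50 tested genes of the other Notch pathway lists (y). Mib1 (-1.56), Spen (-1.05), Crebbp (-0.91), Ep300 (-0.83) and Maml3 (-0.68) were called lower and Psenen (0.62) higher.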

How the data were processed

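RNA-seq was analysed for the neural tubes of 2 EpoR-null, 2 wild type and 1 heterozygous sample, grouped by their labels. The authors deposited raw read counts per gene symbol, 1 table per sample, without normalization. Per the submitters' processing notes, reads were trimmed with Trimmomatic 0.32, aligned with TopHat2 2.1.0 to mm9 and counted with HTSeq 0.6.1, which leaves out reads that match several places or genes, while the study's methods name a human build and give no mouse annotation. The strand setting of the counting is not given in the sources used here. HTSeq summary lines were left out of library sizes, and of reads assigned to a gene, to no gene or to several, 8.12% to 11.0% fell outside genes.

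EdgeR 4.0.16 (R 4.3.3) was run on the counts as in the study's methods, with TMM scaling, tagwise dispersions and exactTest of EpoR-null against the 3 controls. A filter set here kept 12703 genes, those whose CPM exceeded 1 in 2 or more samples. Standard errors came from the negative binomial fit. Transcript length and GC content were those of the longest transcript of GENCODE M21 (GRCm38), matched by symbol, and offsets used loess with a span of 0.5. Alternatives included the quasi-likelihood and likelihood-ratio tests of edgeR, DESeq2 1.42.0, other scalings and filters, thinned counts and each sample left out. The exact, quasi-likelihood (with and without the block), likelihood-ratio and DESeq2 tests were tested on simulated data, the offsets were not. Wild type replicates, and EpoR-null replicates, differed by more than sampling noise, so each sample was counted once.

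The members and all gene lists were chosen with earlier results of these data known. Named are the 10 members, Epor, every pathway or marker gene called, and the gene of each pathway list with the highest mean CPM over all samples, which is not scaled to length. Mib2, Neurl1a, Neurl1b, Rbpj, Maml1, Maml2, Kat2b, Ncstn, Aph1a, Numb, Heyl, Hes3, Hes7 and the newborn neuron genes were named after their values were seen.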

Additional observations from a re-analysis of the deposited data

How the results depend on the processing

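How many genes were called varied with the test and with the samples used. Against 606 genes in the exact test of edgeR (928 at FDR < 0.05 alone), DESeq2 called 1028, the quasi-likelihood F-test 0 (3052 at an unadjusted p under 0.05) and the likelihood-ratio test with length and GC offsets 149, and leaving out each sample gave from 115 to 2296. For the 10 members the count was 2, and it was 0 with the quasi-likelihood F-test (3 at an unadjusted p under 0.05), 0 with the offsets (1 at an unadjusted p under 0.05) and from 1 to 5 with each sample left out. Only Notch3 was called without wild type replicate 1, a fit that called 115 of 12598 genes. For the other pathway genes the count was 6, with 0 in the quasi-likelihood F-test, 1 with the offsets and from 3 to 11 with each sample left out (3 without wild type replicate 1 and 11 without EpoR-null replicate 1). RLE size factors, library size alone, both other filters and thinned counts called the same 2 members, Notch2 and Notch3.

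Directions turned for Dll3 without EpoR-null replicate 1 (from -0.50 to 0.96 with each sample left out), for Lfng without EpoR-null replicate 2 (from -0.037 to 0.24) and with the offsets (-0.15), and for Hes5 with the offsets (-0.20). The sample labels share replicate numbers 1 and 2 and do not say what a number stands for, and across genes, deviations of wild type and EpoR-null samples of the same number correlated at 0.47. With the replicate number as a block, the quasi-likelihood F-test called 291 genes, Notch2 (adjusted p = 0.0410) and Notch3 (0.0415) among them, and with the block and the offsets 0 genes (1100 at an unadjusted p under 0.05, none of the 10 members), with -0.14 for Lfng and -0.13 for Hes5. The causes of these differences were not tested.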

Other observations

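Of the 53 marker genes examined, 46 passed the filter on low counts and 1 was called, beside 4.77% of all genes tested. Msi1, which encodes the progenitor RNA-binding protein Musashi1, known to repress translation of the Notch inhibitor Numb, had 240 and 264 CPM in wild type replicates 1 and 2, 256 CPM in the library labelled heterozygote, and 174 and 181 CPM in EpoR-null replicates 1 and 2. Its log2 fold change was -0.51 (standard error 0.14, adjusted p = 0.00712, exact test of edgeR). With a transcript of 3133 bases it lies among genes whose median log2 fold change was 0.06, and with length and GC offsets the value was -0.66 (adjusted p = 0.00702, likelihood-ratio test of edgeR). It was called in 9 of 16 alternatives, with adjusted p-values up to 0.260. Numb itself was not called (log2 fold change -0.39, adjusted p = 0.435, exact test of edgeR).

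Heyl and Hes3, chosen for this after their values were seen, varied widely between samples of the same genotype and were not called. Heyl had 22.6 and 14.4 CPM in wild type replicates 1 and 2, 1.82 CPM in the library labelled heterozygote, and 52.0 and 4.72 CPM in EpoR-null replicates 1 and 2. Hes3, a Hes gene of the midbrain and hindbrain boundary, had 6.06 and 44.6 CPM in EpoR-null replicates 1 and 2, against 12.6 to 20.1 CPM in controls.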
